A study of Mus musculus with 12 samples.

Results

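Glomeruli of diabetic control mice were compared with glomeruli of untreated control mice. The comparison used 6 of the 12 RNA-seq libraries of a study of the transcription regulator DACH1 in podocytes, and 13473 of the 13475 genes listed for both groups entered the test. The Control + STZ group was 3 mice of genotype control on a C57BL/6 background, given streptozotocin (STZ) by intraperitoneal injection at 50 µg per g of body weight on each of 5 days, with glomerular RNA taken 10 days later. The Control (baseline) group was 3 untreated control mice on the same background, aged 10 weeks; the labels give no age for the STZ mice. The titles of the STZ controls carry the tag hetN and those of the baseline controls the tag Ctrl, and the labels do not say whether the tags mean different alleles. The same contrast in 6 mice with a podocyte-specific DACH1 knockout, 3 after STZ and 3 at baseline, is given beside the control values. The Cre driver that removes Dach1 from podocytes is not given in the labels.

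A glomerulus is the capillary tuft that filters blood in the kidney. Podocytes wrap the capillaries from outside and carry the slit diaphragm, fenestrated endothelial cells line them, and mesangial cells hold the loops together and lay down their matrix. STZ enters the insulin-producing beta cells of the pancreas through the glucose transporter GLUT2, alkylates their DNA and kills them, so that blood glucose rises. GLUT2, the product of Slc2a2, is also made by the proximal tubule of the kidney. Glomeruli were collected on magnetic beads perfused through the heart, so each library was bulk RNA of all glomerular cells and of any tubule and blood cells carried along, and fewer cells of a type cannot be told apart from less RNA per cell.

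Treatment and library arm coincided. The STZ control libraries held 7.34e+07, 7.71e+07 and 6.61e+07 counts, and the baseline control libraries 2.33e+07, 2.49e+07 and 2.38e+07. There were 16293 genes listed for STZ and 13480 for baseline, with 2818 listed for STZ only. Every gene listed for STZ reached 100 counts in at least 1 STZ library of either genotype. Of the genes listed for baseline, 362 stayed below 100 counts in every baseline library. STZ, library arm, depth and the filter behind each table therefore cannot be told apart, and every difference given here is of all of them together. By Xist and Ddx3y, all 3 STZ controls were male, as was baseline replicate 3, while baseline replicates 1 and 2 were female. Of the knockouts, 1 was female and 2 were male after STZ, and 2 were female and 1 was male at baseline. Dach1 was at 147, 174 and 180.2 CPM (a gene's counts scaled to library size, with TMM correction) in STZ controls, against 166, 108 and 191 CPM in baseline controls, and the ranges overlapped.

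Podocyte markers were abundant in all 6 libraries, in keeping with the tissue named in the labels. The 30 podocyte markers summed to between 47896 and 59354 CPM in STZ controls and between 34469.6 and 46934 CPM in baseline controls. The 28 proximal tubule markers summed to 3737, 6369 and 16131 CPM in STZ controls, against 4635, 9202 and 6879 CPM in baseline controls. Among them Kap was at 422, 1393 and 4982 CPM in the STZ controls, all male. It was at 286 and 178 CPM in the baseline females and 2307 CPM in the baseline male. Slc34a1 was not lower in the baseline females, at 443 and 978 CPM against 486 CPM in the male. The part of sex in the sums was not tested. STZ replicate 3 had the highest sum and so carried the most tubule RNA. STZ replicate 1 stood apart in another way. Its 20 tested macrophage and myeloid markers had a mean of 5.80 on the log2 CPM scale, against 3.27 in both other STZ controls and 2.39, 2.80 and 2.67 in baseline controls.

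In edgeR's quasi-likelihood test with Benjamini-Hochberg adjustment, 31 of 13473 genes passed an adjusted p of 0.05, which is 0.23% of the genes tested. Of these, 6 rose after STZ (0.0445%) and 25 fell (0.186%). Every one of the 31 had STZ and baseline ranges that did not overlap, where over all genes 9.49% lay apart with STZ higher and 10.3% with STZ lower. The log2 fold changes of the 31, given throughout as STZ minus baseline, ran from 1.05 to 5.13 in size. The median over all genes was 0.02, and 53.7% of all genes were above 0. With the 31 included, 56 genes had an adjusted p under 0.1. An unadjusted p under 0.05 was reached by 1693 genes, again with the 31 included, 752 of them higher and 941 lower. The number passing was between 4 and 12 when any 1 of the 6 libraries was left out, lowest without STZ replicate 2 or baseline replicate 1, and none of the 31 changed sign in any of these fits. With sex as a covariate 6 genes passed, 4 of them among the 31.

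**Figure D1:**
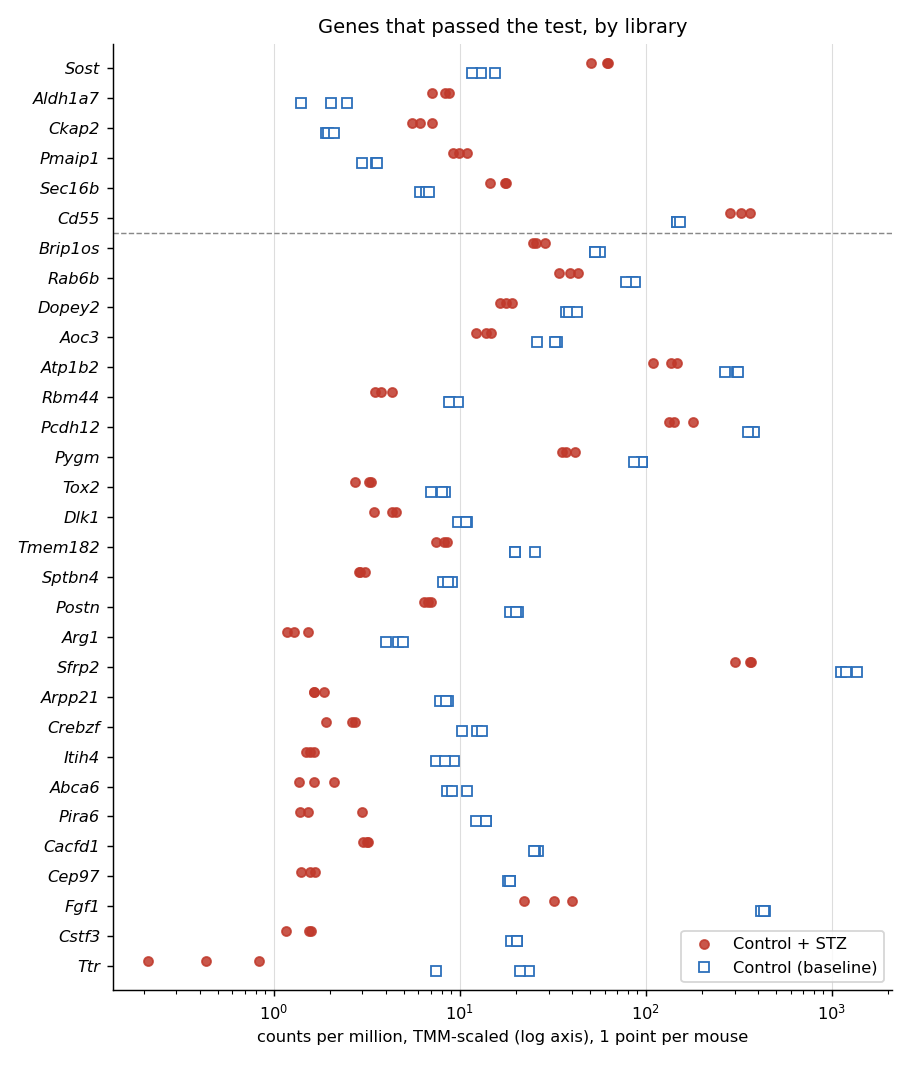
CPM of the 31 genes that passed the test (log axis), 1 symbol per mouse, filled circles for the 3 Control + STZ libraries and open squares for the 3 Control (baseline) libraries. Genes run from the largest rise (Sost) at the top to the largest fall (Ttr) at the bottom; the dashed line parts the 6 that rose from the 25 that fell, and in no gene do circles and squares overlap.

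Of the genes that passed, Sost had the largest rise. It encodes sclerostin, a secreted inhibitor of Wnt signalling known from bone and placed here among the glomerular endothelial markers. Sost (chr11:101962458-101967015, GRCm38.p6) was at 62.3, 61.8 and 50.5 CPM in STZ controls, against 13, 11.7 and 15.5 CPM in baseline controls. The lowest STZ mouse was far above the highest baseline mouse. Its log2 fold change was 2.12 (SE 0.15, adjusted p = 0.00598), a ratio of 4.34. Sost was 1 of 25 endothelial markers tested, and the only one to pass; 21 of the other 24 were below 0, and the median of the list was -0.32. Igfbp5, a binding protein for insulin-like growth factors, was at 3945, 2904 and 4444 CPM in STZ controls, against 7437, 8527 and 7650.2 CPM in baseline controls, with a log2 fold change of -1.06 that did not pass (adjusted p = 0.192). The receptor gene Tek and the transcription factor gene Gata5 likewise had separate ranges, with log2 fold changes of -0.64 and -0.60, and neither passed (adjusted p of 0.257 and 0.198).

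Fgf1 had the clearest fall among well-expressed genes. It encodes acidic fibroblast growth factor, a ligand of all FGF receptors that lowers blood glucose when given to diabetic mice. Fgf1 (chr18:38838672-38929470) was at 32.1, 22.2 and 40.3 CPM in STZ controls, against 415, 439 and 433 CPM in baseline controls. The SD of the baseline mice was 12.1 CPM, and every STZ mouse was far below them. The log2 fold change was -3.77 (SE 0.24, adjusted p = 0.00391), a ratio of 13.6 between baseline and STZ. In knockout mice, with all 12 libraries scaled together, Fgf1 was at 36.3, 166 and 27.8 CPM after STZ, against 389.7, 343 and 180.3 CPM at baseline. The STZ knockout at 166 CPM was the only female of its group, and the baseline knockout at 180.3 CPM the only male. Among baseline controls the male had 433 CPM, between the females at 415 and 439 CPM. The part of sex in the knockout spread was not tested. Fgfr1, which encodes an FGF receptor and was chosen after its values were seen, had 252, 229 and 206 CPM in STZ controls, against 190, 153 and 193 CPM in baseline controls (log2 fold change 0.36, adjusted p = 0.382).

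Sfrp2 and Postn fell among the genes of the mesangium and its matrix. Sfrp2, a secreted frizzled-related Wnt modulator and a mesangial marker (chr3:83765750-83774314), was at 299.9, 363 and 367 CPM in STZ controls, against 1115, 1365 and 1186 CPM in baseline controls. No STZ mouse came near the lowest baseline value, and the log2 fold change was -1.83 (SE 0.16, adjusted p = 0.0125). GENCODE M21 places exons of the opposite-strand gene Gm26771 over those of Sfrp2, and strand handling is not given in the sources used here, so reads of the pair may not have been told apart. Postn, which encodes periostin, a matrix protein that binds integrins (chr3:54359267-54391041), was at 6.44, 7 and 6.76 CPM in STZ controls, against 18.6, 20.5 and 20.1 CPM in baseline controls. Its log2 fold change was -1.55 (SE 0.12, adjusted p = 0.00831), and the 3 STZ mice lay close together.

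Genes with small counts but a very tight spread made up most of the other falls. Cstf3, a subunit of the cleavage factor that trims messenger RNA for polyadenylation, was at 1.17, 1.59 and 1.55 CPM in STZ controls, against 18.8, 20.2 and 20.2 CPM in baseline controls. Cep97, a centrosomal protein that restrains cilium growth, was at 1.57, 1.67 and 1.41 CPM in STZ controls, against 18.6, 18.2 and 18.6 CPM in baseline controls. Cacfd1, a membrane protein of the flower family, was at 3.22, 3.16 and 3.01 CPM in STZ controls, against 26.2, 25.5 and 25.2 CPM in baseline controls. Within each group these 3 genes hardly varied, and the groups were 8.18 to 13.7 times apart. Their log2 fold changes were -3.77 for Cstf3 (SE 0.18, adjusted p = 0.000688), -3.57 for Cep97 (SE 0.15, adjusted p = 0.000399) and -3.03 for Cacfd1 (SE 0.12, adjusted p = 0.000399). The 3 genes kept their call in all 17 other fits tried.

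The remaining large falls were of genes at low levels in STZ controls. Since each gene listed for STZ reached 100 counts in some STZ library, genes that fell lower may be missing from the comparison. Crebzf, a bZIP transcription regulator, was at 1.91, 2.65 and 2.72 CPM in STZ controls, against 10.3, 12.4 and 13.2 CPM in baseline controls (log2 fold change -2.30, adjusted p = 0.0125). Itih4, a heavy chain of the inter-alpha-trypsin inhibitor family of plasma proteins, was at 1.57, 1.5 and 1.64 CPM in STZ controls, against 9.32, 7.43 and 8.36 CPM in baseline controls (log2 fold change -2.41, adjusted p = 0.0053). Abca6, an ABC lipid transporter gene, had a log2 fold change of -2.47 (adjusted p = 0.0144), and Arpp21, a cyclic-AMP-regulated phosphoprotein gene, of -2.27 (adjusted p = 0.0053); exons of Arpp21 overlap the opposite-strand gene 2900079G21Rik. Arg1, which encodes arginase, was at 1.53, 1.28 and 1.18 CPM in STZ controls, against 4.66, 4.95 and 4.03 CPM in baseline controls (log2 fold change -1.77, adjusted p = 0.0349). Ttr, which encodes transthyretin, a carrier of thyroid hormone and of retinol-binding protein, had the largest fold and the loosest spread. It was at 0.212, 0.435 and 0.834 CPM in STZ controls, against 7.50, 23.5 and 21.1 CPM in baseline controls, and the log2 fold change was -5.13 (SE 0.64, adjusted p = 0.046). Pira6 fell too (-2.75, adjusted p = 0.0349), but it belongs to the paired immunoglobulin-like receptor family, whose near-identical members can share reads, so the gene is uncertain.

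The other 12 genes that fell had log2 fold changes between -1.55 and -1.05. Atp1b2, a beta subunit of the sodium pump, was at 136, 148 and 109.7 CPM in STZ controls, against 310.3, 313 and 268 CPM in baseline controls (log2 fold change -1.18, adjusted p = 0.046). Pcdh12, an endothelial protocadherin, was at 133, 180.3 and 141 CPM in STZ controls, against 371, 379.6 and 353 CPM in baseline controls (-1.28, adjusted p = 0.0349). Pygm, the muscle-type glycogen phosphorylase, was at 37.3, 41.7 and 35.3 CPM in STZ controls, against 95.2, 95.9 and 86.9 CPM in baseline controls (-1.28, adjusted p = 0.0125). In each of the 3 genes the highest STZ mouse was well below the lowest baseline mouse. Lower by the test as well were Rab6b, a GTPase of Golgi transport (-1.11), Dopey2 (-1.15), Aoc3, a vascular adhesion protein with amine oxidase activity (-1.17), Rbm44, an RNA-binding protein gene (-1.24), Tox2, an HMG-box factor (-1.33), Dlk1, a Notch-ligand-like protein of progenitor cells (-1.36), Tmem182 (-1.42), Sptbn4, a spectrin (-1.55), and Brip1os, an antisense transcript (-1.05). Exons of Brip1os overlap Ints2 and Med13 on the other strand, and those of Sptbn4 overlap a pair of predicted genes, so these counts are uncertain.

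Besides Sost, 5 genes rose. Pmaip1 encodes NOXA, a BH3-only protein that promotes mitochondrial apoptosis and is a direct target of p53. It was at 10.9, 9.24 and 9.92 CPM in STZ controls, against 2.97, 3.54 and 3.61 CPM in baseline controls, and the log2 fold change was 1.57 (SE 0.16, adjusted p = 0.023). Ckap2, a mitotic spindle protein whose gene is on the list of p53 response genes, was at 7.13, 6.10 and 5.54 CPM in STZ controls, against 1.91, 1.96 and 2.10 CPM in baseline controls (1.65, SE 0.18, adjusted p = 0.03). In both genes the lowest STZ mouse was well above the highest baseline mouse. Of the 16 other fits that tested them, Pmaip1 was called in 7 and Ckap2 in 8.

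Cd55 encodes decay-accelerating factor, which protects cells from complement. It was at 362, 325 and 284 CPM in STZ controls, against 147, 147 and 152 CPM in baseline controls (log2 fold change 1.12, SE 0.13, adjusted p = 0.0343); its exons overlap the opposite-strand gene Gm16083. Sec16b, a scaffold of endoplasmic reticulum exit sites, was at 14.5, 17.7 and 17.5 CPM in STZ controls, against 6.13, 6.56 and 6.81 CPM in baseline controls (1.35, adjusted p = 0.027). Aldh1a7, an aldehyde dehydrogenase, was at 8.71, 8.37 and 7.06 CPM in STZ controls, against 2.04, 1.41 and 2.48 CPM in baseline controls (2.02, adjusted p = 0.0379). Its close paralogue Aldh1a1, which makes retinoic acid from retinaldehyde, was at 19.8, 13 and 8.71 CPM in STZ controls, against 6.93, 5.89 and 6.18 CPM in baseline controls (1.13, adjusted p = 0.252), and since the pair can share reads, which of them rose is uncertain.

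Of the 31 genes, 26 belonged to none of the 36 lists of cell type markers and pathway genes. Lists are described by counts and medians, to be read against the median of 0.02 over all genes and against 53.7% of all genes above 0. Counts of members with separate ranges are to be read against 9.49% of all genes with STZ higher and 10.3% with STZ lower. Their members are not independent of each other, and some genes are on more than 1 list. Where a member is named without passing, the choice was often made after its values were seen.

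**Figure D2:**
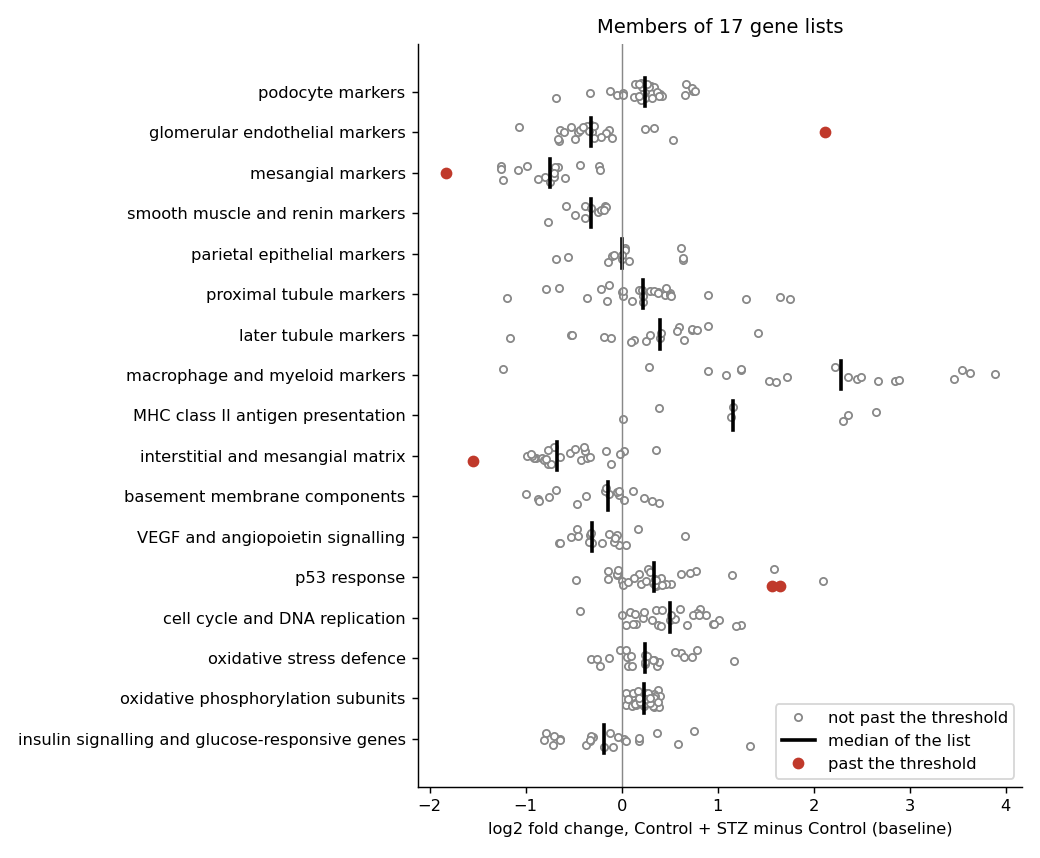
Log2 fold change of each tested member (Control + STZ minus Control (baseline), horizontal axis) in 17 of the 36 lists, filled red where the gene passed an adjusted p of 0.05; the bar is the median of the list. Mesangial markers all lie left of 0 and oxidative phosphorylation subunits all lie right of it, while the myeloid markers spread widest, with a median of 2.29.

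All 17 tested mesangial markers were below 0, with a median log2 fold change of -0.75. In 14 of the 17 the STZ range lay wholly below the baseline range, where 10.3% of all genes did so. Plvap, counted in both the 17 and the 14, is also on the list of endothelial markers. Only Sfrp2 passed. Pdgfrb, the PDGF receptor that mesangial cells need to populate the tuft, was at 289, 353 and 335 CPM in STZ controls, against 665, 979 and 660.0 CPM in baseline controls (log2 fold change -1.24, adjusted p = 0.104). Ptn, the heparin-binding growth factor pleiotrophin, was at 127, 164 and 128 CPM in STZ controls, against 332, 309.8 and 241 CPM in baseline controls (-1.07, adjusted p = 0.104). Itga8, the integrin chain that marks mesangial cells, was at 763, 745 and 445 CPM in STZ controls, against 1346, 1453 and 1067 CPM in baseline controls (-0.99, adjusted p = 0.236). All 3 had separate ranges and none passed. The mean of the list on the log2 CPM scale was 6.98, 7.05 and 6.51 in STZ controls, against 7.76, 7.84 and 7.52 in baseline controls.

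The list of interstitial and mesangial matrix genes went the same way: 24 of its 26 tested members were below 0, with a median of -0.67. Postn alone passed, and 9 members had STZ values wholly below baseline, where 10.3% of all genes did so. Fbln5, an elastic fibre protein, was at 34.4, 38.8 and 32.4 CPM in STZ controls, against 57.9, 48.4 and 69.3 CPM in baseline controls (log2 fold change -0.73, adjusted p = 0.192). Col1a2, a chain of fibrillar collagen, was at 134, 148 and 134 CPM in STZ controls, against 214, 190.3 and 369 CPM in baseline controls (-0.89, adjusted p = 0.274). The mean of the list overlapped between groups, at 5.66, 5.47 and 5.22 in STZ controls against 5.66, 6.05 and 6.31 in baseline controls. Among 18 basement membrane genes the median was -0.15 and none passed. Lamb1, a laminin chain of the developing and mesangial matrix, came closest, at 124, 134 and 117 CPM in STZ controls against 213, 261 and 273 CPM in baseline controls (-1.0, adjusted p = 0.0623). The type IV collagen chains were split: Col4a1, of the ubiquitous network, had a log2 fold change of -0.87 and Col4a3, which podocytes make, of 0.39, and neither passed (adjusted p of 0.364 and 0.476).

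Podocyte markers lay mostly on the other side. Of 30 tested, 26 were above 0, 13 had STZ values wholly above baseline (9.49% of all genes did), and the median was 0.25; none passed. Rhpn1, a podocyte marker, was at 552, 573 and 714 CPM in STZ controls, against 364, 409 and 332 CPM in baseline controls (log2 fold change 0.73, adjusted p = 0.192). Vegfa, the growth factor by which podocytes maintain the endothelium, was at 442, 448 and 389.7 CPM in STZ controls, against 317, 249 and 242 CPM in baseline controls (0.66, adjusted p = 0.202). Pla2r1, the phospholipase A2 receptor, was the exception with a range wholly below baseline, at 97.7, 90.3 and 64.4 CPM in STZ controls against 151, 136 and 117 CPM in baseline controls (-0.68, adjusted p = 0.262). Nphs1, which encodes nephrin, had overlapping ranges (0.25, adjusted p = 0.609). Of the 20 VEGF and angiopoietin signalling genes 17 were below 0, with a median of -0.31, Vegfa being 1 of the 3 above. All 11 smooth muscle and renin markers were below 0 (median -0.32), and none passed. Of these, 3 had STZ values wholly below baseline, where 10.3% of all genes did so. Smtn, the contractile protein smoothelin, had -0.76 (adjusted p = 0.0817) and Acta2, smooth muscle actin, -0.58 (adjusted p = 0.218). Ren1, the renin gene, had overlapping ranges (-0.18, adjusted p = 0.853).

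**Figure D3:**
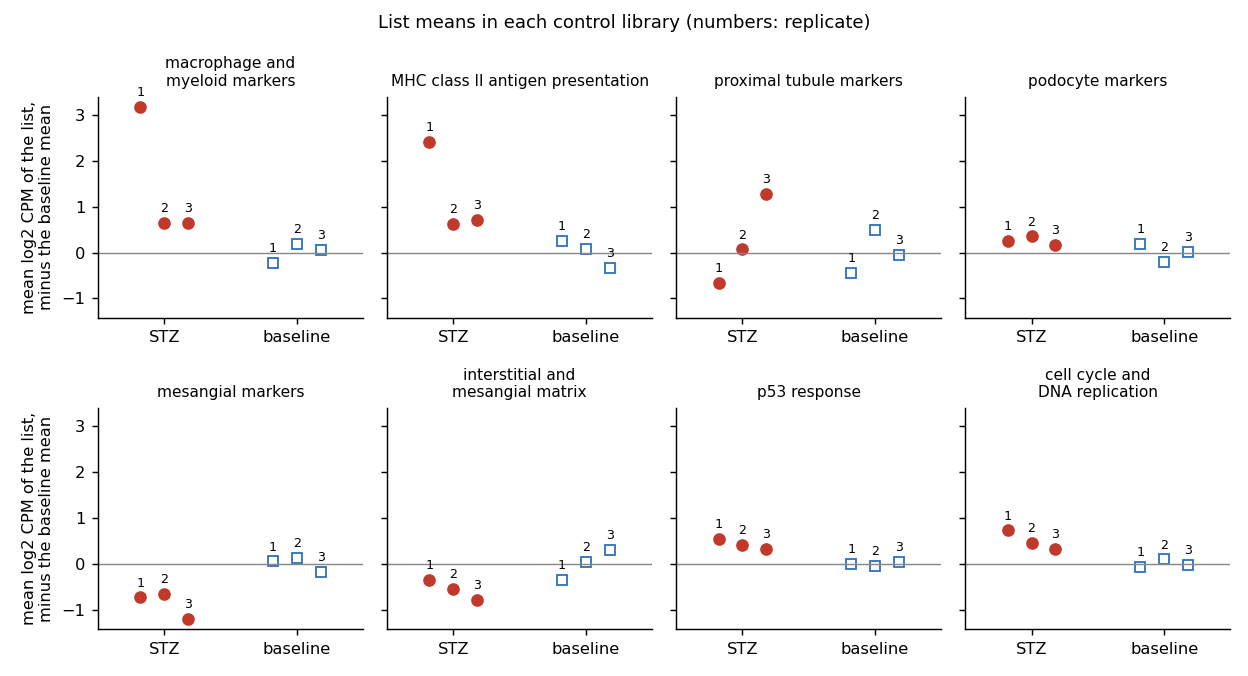
Mean log2 CPM of 8 lists in each control library, minus the mean of the 3 baseline libraries; filled circles are Control + STZ and open squares Control (baseline), with the replicate number above each. STZ replicate 1 stands apart in myeloid and MHC class II genes and STZ replicate 3 in proximal tubule genes. In mesangial, p53, cell cycle, myeloid and MHC class II genes all 3 STZ libraries lie to the same side of all baseline libraries.

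The p53 response list held both Pmaip1 and Ckap2. Of its 35 genes 32 were tested and 25 were above 0, with a median log2 fold change of 0.34. In 14 the STZ values lay wholly above baseline (9.49% of all genes did), and in none wholly below (10.3% of all genes did). Apart from the 2 that passed, Ccng1, cyclin G1 and a classical p53 target, was at 205, 234 and 216 CPM in STZ controls, against 148, 139.8 and 140.1 CPM in baseline controls (log2 fold change 0.61, SE 0.11, adjusted p = 0.135). Eda2r, a TNF receptor family member activated by ectodysplasin, was at 15.5, 12.8 and 7.68 CPM in STZ controls, against 3.42, 4.01 and 4.54 CPM in baseline controls (1.59, adjusted p = 0.145). Gdf15, a stress-induced hormone, was at 4.67, 3.94 and 7.33 CPM in STZ controls, against 0.622, 0.982 and 2.10 CPM in baseline controls (2.10, adjusted p = 0.197). These 3 had separate ranges but did not pass. Other p53 targets overlapped: Cdkn1a, the cell cycle inhibitor p21, was at 231, 109 and 66.4 CPM in STZ controls, against 174, 69.2 and 92.5 CPM in baseline controls (0.28, adjusted p = 0.857). The list mean was 5.25, 5.13 and 5.04 on the log2 CPM scale in STZ controls, against 4.71, 4.67 and 4.75 in baseline controls. The median was 0.27 without STZ replicate 1 and between 0.24 and 0.39 over all alternatives. Among 22 genes of DNA damage signalling and repair the median was 0.10, with 4 members wholly above and 1 wholly below baseline; Mgmt, which removes alkyl groups from guanine, had 0.78 (adjusted p = 0.276).

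Of 29 tested cell cycle and DNA replication genes 28 were above 0, with a median of 0.50, and none passed. In 16 the STZ values lay wholly above baseline, where 9.49% of all genes did so. Ccnb2, a B-type cyclin of mitosis, was at 6.51, 5.26 and 5.28 CPM in STZ controls, against 2.66, 2.95 and 3.19 CPM in baseline controls (log2 fold change 0.95, SE 0.18, adjusted p = 0.158). Mki67, which encodes the proliferation antigen Ki-67, was at 19.9, 21.4 and 14.0 CPM in STZ controls, against 6.08, 10.8 and 6.43 CPM in baseline controls (1.24, adjusted p = 0.199). Rrm2, a subunit of ribonucleotide reductase, had 0.88 (adjusted p = 0.195). Many of these genes were at low levels. In the fifth of genes with the lowest mean level (0.34 to 8.12 CPM) the median was 0.06 and 57.9% were above 0, and in the fifth with the highest level (from 89.3 CPM) the median was -0.02 and 46.8% were above 0. Without STZ replicate 1, the library rich in myeloid RNA, the cell cycle median was 0.30.

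Promoter sequences are printed for the p53 list and cell cycle genes, because Ckap2 passed the test and is itself a spindle gene of mitosis. Windows of 250 bases before to 50 bases after an annotated start came from RefSeq (GRCm38.p6), and 24 p53 list genes and 24 cell cycle genes matched a window. They were searched on both strands for the p53 decamer, for the CCAAT box and for the cell cycle homology region TTTGAA. A single decamer, which is only a part of a p53 response element, counted as a match. The p53 decamer was found in 12 of the 24 p53 list genes (50.0%), in 3 of the 24 cell cycle genes (12.5%), in 8.29% of the tested genes with a window and in 8.36% of all 32851 windows. CCAAT was found in 21 of the 24 cell cycle genes (87.5%), in 16 of the 24 p53 list genes (66.7%), in 42.8% of tested genes and in 37.4% of all windows. TTTGAA was found in 12 of the 24 cell cycle genes (50.0%), in 5 of the 24 p53 list genes (20.8%), in 14.6% of tested genes and in 17.9% of all windows. A match is a description of letters and not a bound site. These shares follow from which genes were put on each list and use no difference between STZ and baseline. They therefore say nothing of the differences after STZ. In the lines that follow, capitals mark the matches, which do not overlap each other. The Ckap2 window (chr8:22185770-22186069, minus strand) holds 1 p53 decamer, 1 CCAAT and 1 TTTGAA. The Ccng1 window (chr11:40755237-40755536, minus strand) is marked for its 1 p53 decamer only. The Ccnb2 window (chr9:70421505-70421804, minus strand) and the Mki67 window (chr7:135716330-135716629, minus strand) each hold 3 CCAAT boxes and 2 TTTGAA matches.
Ckap2: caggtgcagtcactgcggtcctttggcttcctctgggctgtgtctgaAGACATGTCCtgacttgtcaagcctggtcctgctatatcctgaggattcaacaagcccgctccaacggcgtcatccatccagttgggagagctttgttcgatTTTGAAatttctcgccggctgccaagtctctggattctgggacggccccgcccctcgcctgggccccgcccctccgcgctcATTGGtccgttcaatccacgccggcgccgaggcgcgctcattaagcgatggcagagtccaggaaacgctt
Ccng1: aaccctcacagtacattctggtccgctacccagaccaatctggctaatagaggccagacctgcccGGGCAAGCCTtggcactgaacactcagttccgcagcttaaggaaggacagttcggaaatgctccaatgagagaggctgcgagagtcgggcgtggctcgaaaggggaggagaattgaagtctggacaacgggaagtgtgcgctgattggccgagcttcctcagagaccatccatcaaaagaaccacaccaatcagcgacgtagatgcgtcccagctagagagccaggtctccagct
Ccnb2: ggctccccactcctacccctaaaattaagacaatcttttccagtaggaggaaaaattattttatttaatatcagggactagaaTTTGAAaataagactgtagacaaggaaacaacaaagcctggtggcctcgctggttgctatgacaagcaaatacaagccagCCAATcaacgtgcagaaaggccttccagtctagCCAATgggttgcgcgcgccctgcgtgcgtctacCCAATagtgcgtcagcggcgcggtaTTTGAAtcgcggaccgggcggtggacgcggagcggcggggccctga
Mki67: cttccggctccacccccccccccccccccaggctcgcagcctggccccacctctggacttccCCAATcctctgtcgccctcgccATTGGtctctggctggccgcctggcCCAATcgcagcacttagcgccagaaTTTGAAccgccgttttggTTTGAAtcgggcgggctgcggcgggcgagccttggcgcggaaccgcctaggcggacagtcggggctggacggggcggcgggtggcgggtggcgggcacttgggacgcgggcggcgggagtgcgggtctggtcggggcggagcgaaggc

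In these lines Ckap2, which passed the test, is the only one marked for the motifs of both lists, and its capitals lie in 3 separate places. The Ccng1 line holds CCAAT too, left in small letters, and CCAAT was found in 16 of the 24 p53 list genes (66.7%). Matches of both lists are therefore not particular to Ckap2. Ccng1 and Ccnb2 had the smallest p of the uncalled genes of their lists, and Mki67 is shown as the best known cell cycle marker; it was chosen after its values were seen.

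Macrophage and myeloid markers had the largest list median, 2.29, and 19 of 20 tested markers were above 0, but none passed and the size of the difference rested on STZ replicate 1. Lyz2, lysozyme of macrophages and neutrophils, was at 281, 52.6 and 64.6 CPM in STZ controls, against 13, 23.7 and 25.8 CPM in baseline controls (log2 fold change 2.67, adjusted p = 0.243). C1qa, a chain of complement C1q made by tissue macrophages, was at 64.3, 6.07 and 4.34 CPM in STZ controls, against 1.64, 3.54 and 1.55 CPM in baseline controls (3.46, adjusted p = 0.326). Mpeg1, the macrophage pore-forming protein perforin-2, was at 214, 27.2 and 15.4 CPM in STZ controls, against 4.66, 8.05 and 8.03 CPM in baseline controls (3.63, adjusted p = 0.273). In each gene replicate 1 was several-fold above both other STZ mice, and those were still above every baseline mouse. Of the 20 markers 11 had STZ values wholly above baseline, where 9.49% of all genes did so. Without STZ replicate 1 the median of the list was 0.64. Mrc1, the mannose receptor of resident macrophages, went the other way, at 168, 126 and 80.0 CPM in STZ controls against 313, 327 and 239 CPM in baseline controls (-1.23, adjusted p = 0.2).

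MHC class II genes, which antigen-presenting cells use to show peptides to T cells, followed the same libraries. All 7 tested genes were above 0, with a median of 1.16, or 0.77 without STZ replicate 1. H2-Aa, an alpha chain of the complex, was at 196, 32.0 and 27.3 CPM in STZ controls, against 10.9, 16.9 and 13 CPM in baseline controls (log2 fold change 2.65, adjusted p = 0.299). The endothelial adhesion molecule gene Sele (E-selectin) was at 161, 18.2 and 18.1 CPM in STZ controls, against 4.66, 7.54 and 5.04 CPM in baseline controls (3.52, adjusted p = 0.259). Il1b, the cytokine interleukin-1 beta, was at 14.6, 4.77 and 7.38 CPM in STZ controls, against 1.55, 2.48 and 1.55 CPM in baseline controls (2.25, adjusted p = 0.182). Replicate 1 was highest in all 3 of these genes, and the other STZ mice were above baseline too. Without replicate 1 the log2 fold changes were 1.13 for H2-Aa, 1.66 for Sele and 1.70 for Il1b, and none passed. T and B cell markers gave little to measure, since 4 of 18 were tested and their summed level was 11.5, 7.27 and 12.3 CPM in STZ controls, against 7.01, 10.5 and 11.0 CPM in baseline controls. The part of the blood and immune cells of replicate 1 in the other lists was not tested. With the mean myeloid level as a covariate, 4 genes passed, all among the 31 and all lower.

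Genes of the insulin and glucose response gave small differences. Of 23 tested 8 were above 0 and 15 below, with a median of -0.18, and none passed. Foxo1, the forkhead factor that insulin keeps out of the nucleus, was at 91.7, 93.0 and 97.1 CPM in STZ controls, against 146, 164 and 177 CPM in baseline controls (log2 fold change -0.79, SE 0.11, adjusted p = 0.0745). Txnip, a glucose-induced inhibitor of thioredoxin, was at 1499.7, 1391 and 922 CPM in STZ controls, against 1289.7, 1363 and 1673 CPM in baseline controls, and the ranges overlapped (-0.18, adjusted p = 0.775). Outside that list Slc2a2, the STZ transporter gene and a proximal tubule marker, was at 17.4, 25.3 and 47.0 CPM in STZ controls, against 15.6, 35 and 20.3 CPM in baseline controls, highest in the library with the most tubule RNA (0.34, adjusted p = 0.778). Pik3r1, a regulatory subunit of PI3-kinase, had -0.65 (adjusted p = 0.267).

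Metabolic and stress lists held no gene that passed. All 34 oxidative phosphorylation subunits were above 0, with a median of 0.23. Only 3 had STZ values wholly above baseline, where 9.49% of all genes did so. STZ replicate 3, the library richest in tubule RNA, had the highest mean (7.59, against 7.0 in both other STZ controls and 6.94 to 7.09 in baseline controls). Fatty acid oxidation genes had a median of 0.22 (21 of 24 above 0) and 40 ribosomal protein genes one of 0.09. Of 25 oxidative stress defence genes 20 were above 0, with a median of 0.24. Nqo1, the NRF2 target quinone reductase, was at 20.6, 12.8 and 18.8 CPM in STZ controls, against 6.53, 9.31 and 7.35 CPM in baseline controls (log2 fold change 1.17, adjusted p = 0.175). Medians were 0.10 for glycolysis, 0.07 for cholesterol and fatty acid synthesis, -0.10 for endoplasmic reticulum stress, 0.02 for TGF-beta ligands and response genes and 0.01 for immediate early genes. Eif2ak3, the stress sensor PERK, had separate ranges and did not pass (-0.88, adjusted p = 0.175). Interferon-stimulated genes had a median of 0.29, with 1 of 34 wholly above baseline, and clock genes one of 0.29, with Arntl (BMAL1) at -1.13 and its target Tef at 0.78, neither passing (adjusted p of 0.28 and 0.218). Proximal and later tubule markers had medians of 0.22 and 0.40, and none passed. Without STZ replicate 3 the proximal tubule median was -0.43. Further medians, with none of their members passing, were 0.32 for chemokines, adhesion molecules and NF-kappaB targets, 0.20 for MHC class I genes, 0.18 for the hypoxia response, 0.04 for renin-angiotensin and vasoactive genes and 0.02 for slit diaphragm and actin genes. Heat shock chaperones had -0.05, glucocorticoid and fasting genes -0.16 and red blood cell markers -0.37, and parietal epithelial markers had 6 of 13 above 0. Among the alternatives, 17 of the 36 list medians changed sign at least once. With the myeloid covariate the median was -0.28 for the chemokine list, -0.05 for MHC class I genes and -0.03 for clock genes.

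The knockout mice gave the same contrast in libraries that the control comparison does not share, though in the same library arms. There 24 of 13473 genes passed (0.178%), 15 higher and 9 lower. All 31 genes of the control comparison had the same sign in knockouts, where 65.6% of all genes did, and 25 of the 31 had knockout ranges that lay apart in the same direction. These were 4 of the 6 higher genes, where 11.2% of all genes lay apart with STZ higher in knockouts, and 21 of the 25 lower genes, where 10.4% lay apart with STZ lower. In 27 of the 31 the knockout difference was smaller. The 31 were chosen by their control values, which favours larger control differences, so this count does not measure an effect of genotype. Passing in both genotypes were 7 genes, all of them lower, which is 22.6% of the control list and 29.2% of the knockout list: Cstf3, Cep97, Cacfd1, Crebzf, Abca6, Pira6 and Brip1os. With all 12 libraries scaled together, Cstf3 was at 1.64, 1.31 and 1.40 CPM in STZ knockouts, against 22.3, 22.9 and 20.5 CPM in baseline knockouts (log2 fold change -3.94, adjusted p = 0.000869). On the same scale Sost was at 107, 52.2 and 71.6 CPM in STZ knockouts, against 31.5, 41.6 and 52.5 CPM in baseline knockouts. Its log2 fold change of 0.85 did not pass (adjusted p = 0.253). These Sost ranges overlap slightly. Sost is among the 4 because its ranges lay apart when the knockout libraries were scaled by themselves. Pmaip1 and Ckap2 had 0.62 and 0.90 in knockouts (adjusted p of 0.541 and 0.323).

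**Figure D4:**
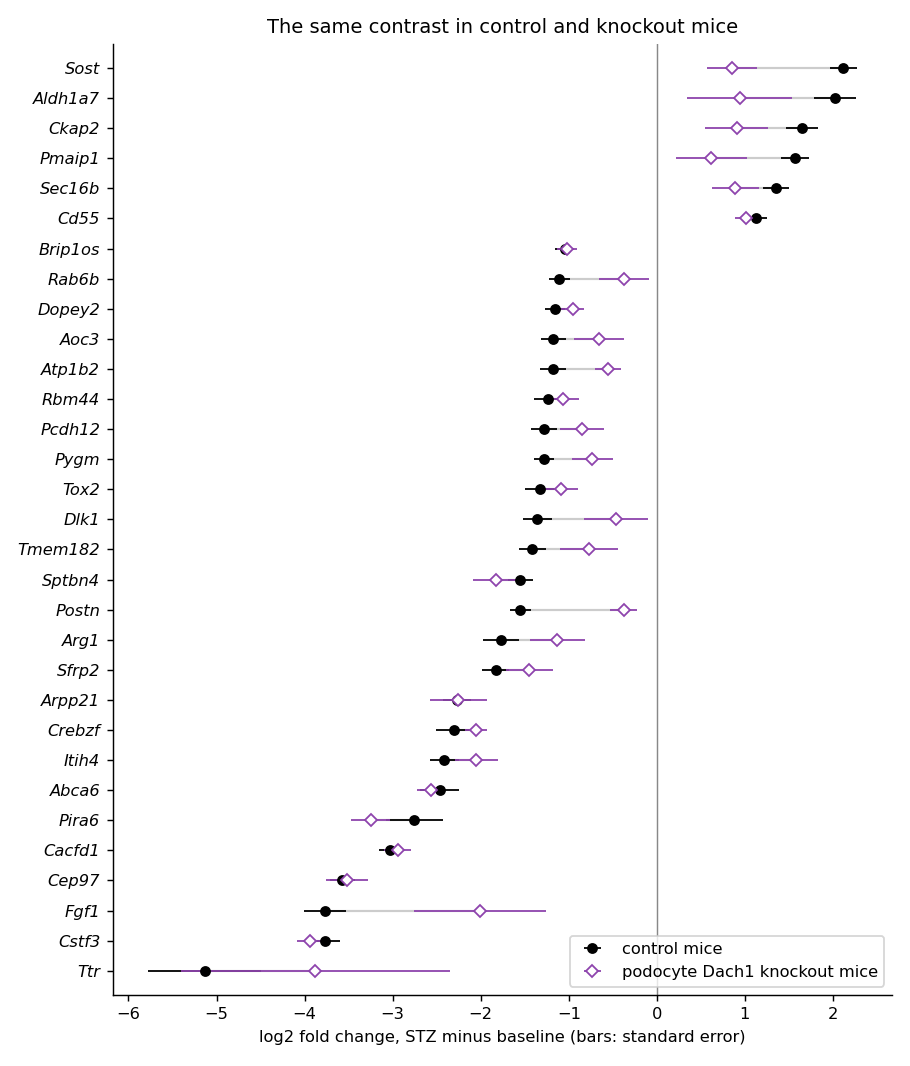
Log2 fold change of STZ minus baseline for the 31 genes that passed in control mice (black circles), beside the same contrast in podocyte Dach1 knockout mice (open diamonds); bars are standard errors. All 31 pairs lie on the same side of 0, the 7 genes that passed in both genotypes are all lower, and the diamond lies nearer to 0 in 27 of the 31. The 31 were chosen by their control values, which favours larger control differences.

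List medians in knockouts were -0.66 for mesangial markers, 0.38 for podocyte markers, 0.13 for the p53 list and 0.33 for the cell cycle list, against -0.75, 0.25, 0.34 and 0.50 in controls for the same lists. The matrix list had a median of -0.00 in knockouts and -0.67 in controls, smooth muscle and renin markers 0.21 and -0.32, and proximal tubule markers -1.06 and 0.22. The differences between these medians were not tested. Gene by gene, the interaction of genotype and STZ passed for 1 of 13475 genes (0.00742%), with 494 at an unadjusted p under 0.05. That gene was Adamtsl1, a secreted ADAMTS-like matrix protein, with a log2 fold change of -0.27 in controls (adjusted p = 0.538) and 1.26 in knockouts (adjusted p = 0.0323), a difference of -1.52 (SE 0.17, adjusted p = 0.044). Postn differed by -1.17 without passing (adjusted p = 0.0974): with all 12 libraries scaled together it was at 8.72, 7.92 and 7.14 CPM in STZ knockouts, against 11.3, 9.73 and 9.29 CPM in baseline knockouts. Parm1, a mucin-like membrane protein gene, differed by -2.86 (adjusted p = 0.0578), with a control log2 fold change of -0.54. The call of Adamtsl1 was lost when any 1 library was left out. For Sost the difference was 1.27 (adjusted p = 0.975).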

How the data were processed

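Glomerular RNA was sequenced, and the deposited per-gene values, 10.7 to 11.4% of which are a whole number plus 0.5 in the control libraries, were read as estimated counts made by the authors. BWA and mm10 appear, with no role given, among the submitters' processing notes; counting tool, strand setting and gene filter: not given in the sources used here. Totals per control library ran from 2.33e+07 to 7.71e+07 counts. Values were rounded to whole numbers and 8 blanks were taken as 0. The 2818 genes listed for STZ only and the 5 listed for baseline only were not used here. Genes were kept by filterByExpr, scaled by TMM and tested with edgeR 4.0.16 (quasi-likelihood, Benjamini-Hochberg adjustment, R 4.3.3) over the 6 control libraries. Knockouts had the same fit, and the interaction used all 12 libraries. DESeq2 1.42.0, other scalings, filters, covariates and left-out replicates were alternatives.

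Replicates differed beyond sampling noise (chi-square per degree of freedom of 42 or more in every control pair). The labels do not say more of them than that they are separate samples. Each was taken as 1 mouse, and p-values measure the spread between these libraries. The genes named were up to 12 called genes of largest change in each direction, up to 6 called or 2 uncalled members of smallest p per list, 7 preset genes and up to 5 interaction genes in each direction; the other called genes, and Aldh1a1, C1qa, Ccng1, Col1a2, Col4a1, Col4a3, Eda2r, Fbln5, Fgfr1, Gata5, Gdf15, Igfbp5, Itga8, Lyz2, Mki67, Mpeg1, Pdgfrb, Pla2r1 and Ptn, were chosen after their values were seen. A result for 1 preset gene is not reported here. The comparison, members and lists were chosen with earlier results of these data known. The test was checked on simulated counts. RefSeq matched 13451 of 13473 tested symbols (99.8%) and gave positions and promoters on GRCm38.p6.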

Additional observations from a re-analysis of the deposited data

Results flagged for a closer look

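Adamtsl1 alone passed the interaction test of genotype and STZ (edgeR, adjusted p = 0.044). It is given here because the STZ difference differed between controls and knockouts. The difference in controls minus that in knockouts was -1.52 on the log2 scale. With all 12 libraries scaled together, Adamtsl1 was at 4.09, 4.23 and 4.92 CPM in STZ controls, against 5.63, 5.28 and 4.68 CPM in baseline controls. It was at 116, 119.6 and 141 CPM in STZ knockouts, against 50.2, 48.3 and 56.3 CPM in baseline knockouts. The call was absent with libraries thinned to equal depth.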

How the results depend on the processing

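Against 31 genes in controls, DESeq2 called 410 (145 higher, 265 lower), all 31 among them, the proximal tubule covariate 47 (14 higher, 33 lower), 1 fit of all 12 libraries 69, a sex covariate 6 and a myeloid covariate, chosen after seeing the data, 4. Leaving out 1 library gave 4 to 12 genes: 12 without STZ replicate 1 or 3 or baseline replicate 3, 10 without baseline replicate 2, and 4 without STZ replicate 2 or baseline replicate 1. Other scalings, filters, thinning and rounding gave 27 to 31. The cause was not tested, beyond the fewer samples in the fits that leave out a library. No gene of the 31 changed sign in these fits. Cacfd1, Cep97 and Cstf3 were called in all 17, Fgf1 in 16, Sost in 13. Called less often were Ttr (5 of 16 fits), Pmaip1 and Aldh1a7 (7 of 16 each), Dlk1 (7 of 17) and Ckap2 (8 of 16). Ttr, Pmaip1, Aldh1a7 and Ckap2 did not enter the fit that asked for 100 counts in a library of each arm. That fit called 27 genes, 3 of them higher. Against 24 genes in knockouts, DESeq2 called 805 and leaving out 1 library 1 to 8. Against 1 interaction gene, DESeq2 called 31, DESeq2 size factors in edgeR 2, thinning 0 and leaving out 1 library 0 to 2.

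No called gene reversed; these uncalled genes did. Cdkn1a had -0.63 with the myeloid covariate and -0.35 without STZ replicate 1. With the sex covariate Dach1 had -0.19 and Pvalb 0.33. Without 1 library, Dach1 ran between -0.093 and 0.29, Cd79b between -0.097 and 0.68, Cdkn1a between -0.35 and 0.75, Slc2a2 between -0.14 and 0.74, Txnip between -0.32 and 0.0079, and Ren1 between -0.41 and 0.079, including 0.046. Of 612 list medians under an alternative, 570 moved by less than the replicate spread. Of the 36 lists, 17 changed the sign of the median under at least 1 alternative, namely chemokines (-0.28 to 0.49), proximal tubule (-0.43 to 0.76), clock (-0.03 to 0.70), cholesterol synthesis (-0.08 to 0.20), MHC class I (-0.05 to 1.17), endoplasmic reticulum stress (-0.48 to 0.21), glucocorticoid and fasting (-0.68 to 0.49), heat shock (-0.95 to 0.69), TGF-beta (-0.46 to 0.08), immediate early (-0.40 to 0.35), glycolysis (-0.02 to 0.18), renin-angiotensin (-0.29 to 0.08), slit diaphragm (-0.11 to 0.11), red blood cell (-1.65 to 0.24), lymphocyte (-0.44 to 0.47), parietal (-0.25 to 0.19) and ribosomal genes (-0.003 to 0.19). Sex, arm and depth are partly or wholly tied to treatment, and genes near 1 CPM rest on few counts in the baseline libraries. No paired analysis was possible because the labels give no replicate numbers that the groups share.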
